A study of Homo sapiens with 6 samples.

Results

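The genes described here are 10 that sense DNA breaks or help to repair them: ATM, ATR, PRKDC, XRCC5, XRCC6, LIG4, TP53BP1, BRCA1, BRCA2 and CHEK1. They were taken by symbol from a table of 25277 gene rows, and each symbol matched 1 row. All 10 were above 1 FPKM (a level scaled for the length of the transcript and for the mapped fragments of the library) in each of the 6 libraries. None therefore entered the tests through a group in which it was high.

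The libraries are RNA-seq of Jeko and Rec-1. Both are established human lines of mantle cell lymphoma, which is a malignancy of B cells that typically carries a translocation driving cyclin D1 (CCND1). Every library carried a CRISPR/Cas9 vector with doxycycline control and was taken after 48 h of doxycycline. Per line, 1 library had the empty vector (called control below) and 2 had a single guide RNA against NR4A1, a nuclear receptor gene of the immediate early class, numbered sgRNA 1 and sgRNA 2. The comparisons ask how the lines differ under the guides and what accompanies the guides within each line. No label says whether libraries came from separate cultures, so p-values measure only the spread between these libraries, and neither control has a replicate. The 2 sgRNA libraries of a line carry differently numbered guides, so their spread mixes guide with library.

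A DNA double-strand break is recognised by 3 related kinases. ATM responds to broken ends bound by the MRN complex, ATR with its partner ATRIP responds to exposed single-stranded DNA and activates CHEK1, and DNA-PKcs (the product of PRKDC) binds ends held by the Ku ring of XRCC6 (Ku70) and XRCC5 (Ku80). Ku and DNA-PKcs lead to end joining, which LIG4 completes by ligation with XRCC4. TP53BP1 protects ends from resection, whereas BRCA1 promotes resection and BRCA2 acts after resection in homologous recombination. In B cells the end-joining factors also serve V(D)J recombination and TP53BP1 and ATM serve class switching, and ATM is a tumour suppressor gene frequently mutated or deleted in mantle cell lymphoma.

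Some libraries did not resemble others of the same labelled line, and this touches each comparison below. NR4A1 itself was at 5.99 FPKM with the empty vector in Jeko and at 3.89 and 4.44 in Jeko sgRNA 1 and 2. In Rec-1 it was at 11.6 FPKM in the library labelled control and at 27.4 and 12.7 in those labelled sgRNA 1 and 2, so its mRNA was not lower there. These mRNA levels do not show whether the gene was edited in either line. The library labelled Rec-1 control correlated with the Jeko control at a Pearson r of 0.988 (a description across 10319 protein-coding genes), but with Rec-1 sgRNA 1 and 2 at 0.805 and 0.811. CCND1 was between 442 and 815 FPKM in 4 libraries and at 0.696 and 0.592 in Rec-1 sgRNA 1 and 2. The B-cell markers MS4A1, CD79A, CD79B, PAX5 and CD22 were each at 1 FPKM or more in every library. Summed FPKM of 5 T or NK cell markers was 0.361 to 0.993 in those 4 libraries and 71.5 and 101 in Rec-1 sgRNA 1 and 2, mostly from CD3D, with 2 of the 5 listed at 0 in each. The part of these differences in the results was not tested.

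Sequence upstream of the start site is shown for 4 of the genes. ATM and BRCA1 were chosen as called in the most comparisons below. ATR was chosen because it stood opposite to ATM, and XRCC6 because it is the most abundant of the 10. Each stretch is free of annotated exons, lies within 250 bases upstream of the canonical start on GRCh37 and is written 5′ to 3′ on the gene's strand. Capitals mark the words found among those searched on both strands. The last base shown lies 24, 120 and 133 bases before the start for ATM, BRCA1 and XRCC6, and 1 base before it for ATR. Words in the parts not shown, such as CCAAT at −26 for XRCC6, are counted in the whole windows below. ATM (chr11:108093544-108093770, plus) holds ATTGG, the reverse complement of CCAAT, and a match to the NRF1 word GCGCANGCGC. BRCA1 (chr17:41277501-41277567, minus) holds CCAAT, XRCC6 (chr22:42017049-42017166, plus) holds GGGCGG at 3 places, and ATR (chr3:142297576-142297825, minus) holds its reverse complement CCGCCC at 2 places and CTTCCGG, the reverse complement of CCGGAAG, at 2.
ATM: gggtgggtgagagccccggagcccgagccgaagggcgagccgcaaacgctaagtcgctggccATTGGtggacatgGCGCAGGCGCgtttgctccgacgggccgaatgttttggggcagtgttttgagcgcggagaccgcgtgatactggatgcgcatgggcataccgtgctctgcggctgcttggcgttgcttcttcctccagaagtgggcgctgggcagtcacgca
BRCA1: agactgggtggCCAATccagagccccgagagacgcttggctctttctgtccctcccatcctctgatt
XRCC6: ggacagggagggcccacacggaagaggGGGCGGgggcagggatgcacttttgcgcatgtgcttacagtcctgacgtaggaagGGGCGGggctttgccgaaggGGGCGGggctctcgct
ATR: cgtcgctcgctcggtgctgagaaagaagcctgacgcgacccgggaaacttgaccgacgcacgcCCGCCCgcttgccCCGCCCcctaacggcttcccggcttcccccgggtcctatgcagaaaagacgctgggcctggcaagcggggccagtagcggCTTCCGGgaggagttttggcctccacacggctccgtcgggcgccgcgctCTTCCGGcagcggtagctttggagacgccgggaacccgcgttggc
Over whole 250-base windows, CCAAT (NF-Y) was found for 4 of the 10 genes and in 35.9% of 10281 tested protein-coding genes. The NRF1 word GCGCANGCGC was found for 3 against 11.9%, CCGGAAG (ETS) for 3 against 18.3%, GGGCGG (GC box) for 4 against 72.8% and TTTGAA (CHR) for 1 against 7.64%. None of the 10 held TGACGTCA (CRE, 3.26%) or any of the E2F words TTTCCCGC, TTTGGCGC, TTTCGCGC and TTTGCCGC (5.08%). GCGCANGCGC and the E2F words can share letters at GCGC, and a match is a description of letters only.

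The genes are spread over the genome and most of their transcripts are long. On GRCh37 ATM lies on chromosome 11 from 108093771 to 108239829 (plus strand) and CHEK1 on the same arm from 125495058 to 125546150 (plus). ATR is on chromosome 3 from 142167849 to 142297575 (minus), PRKDC on chromosome 8 from 48685672 to 48872738 (minus), XRCC5 on chromosome 2 from 216972187 to 217071026 (plus) and XRCC6 on chromosome 22 from 42017167 to 42060052 (plus). BRCA2, from 32889223 to 32974405 (plus), and LIG4, from 108859787 to 108870716 (minus), are on chromosome 13. TP53BP1 is on chromosome 15 from 43695259 to 43802926 (minus) and BRCA1 on chromosome 17 from 41196312 to 41322262 (minus). Canonical transcripts, the main annotated form, run from 2122 nucleotides for XRCC6 to 13458 for PRKDC. ATM (12915), BRCA2 (11954) and TP53BP1 (10369) are the next longest, followed by ATR (8158), BRCA1 (7088), CHEK1 (4128), LIG4 (3981) and XRCC5 (3379).

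Within a library the 10 genes differed far more from each other than any of them differed between libraries. XRCC6 and then XRCC5 were highest in all 6, at 179 to 442 and 77.3 to 253 FPKM. PRKDC, BRCA1 and CHEK1 came next in the 4 libraries that were not Rec-1 sgRNA, at 14.9 to 34.3 FPKM. ATM was the lowest of the 10 in those 4 libraries, where it stood between the 12.7th and 14.5th percentile of tested genes, but eighth in Rec-1 sgRNA 1 and 2 at the 39.9th and 39.6th. BRCA2 was the lowest in the latter libraries. LIG4 and TP53BP1 were both between 3.09 and 9.36 FPKM, and their order changed between libraries.

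**Figure D1:**
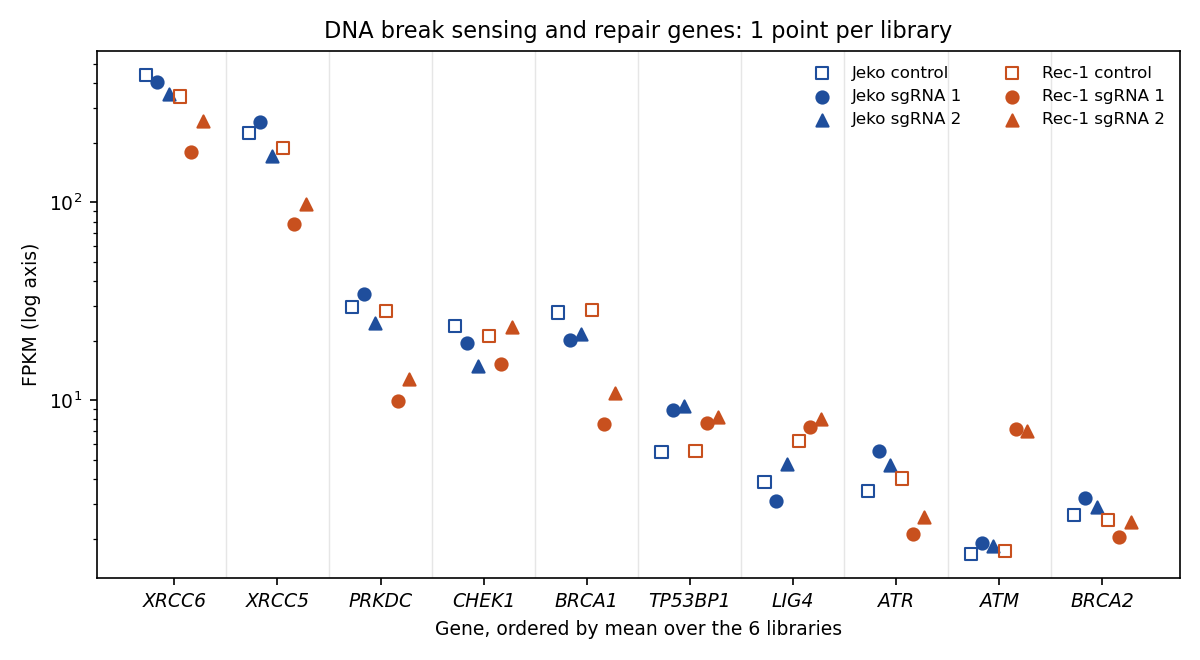
FPKM on a log axis for each of the 10 genes, 1 point per library with line and vector given by colour and marker. XRCC6 and XRCC5 stand highest throughout, and ATM alone has Rec-1 sgRNA 1 and 2 (7.19 and 7.02) far above the other 4 libraries (1.68 to 1.91).

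The first comparison set the 2 Rec-1 sgRNA libraries against the 2 Jeko sgRNA libraries. ATM was higher in Rec-1 sgRNA, by 3.80-fold in mean FPKM. ATR, PRKDC, XRCC5 and BRCA1 were lower, by 2.20-fold, 2.58-fold, 2.41-fold and 2.26-fold. XRCC6, LIG4, TP53BP1, BRCA2 and CHEK1 did not pass the threshold. These bulk levels cannot tell apart fewer cells of a type from less RNA per cell.

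The test was limma on log2(FPKM + 1), with p-values adjusted by Benjamini-Hochberg over 11400 genes and a threshold of 0.05. All differences below are on that scale unless FPKM is named. It called 5 of the 10 genes, 1 higher and 4 lower, where 25.7% of all tested genes were called, 12.6% higher and 13.1% lower. The median of the 10 differences was −0.57, against −0.03 over all tested genes. Leaving out 1 library, which leaves a lone sample assumed to vary like the others, ended every call without Jeko sgRNA 1, Jeko sgRNA 2 or Rec-1 sgRNA 1, and 1 of 10 was called without Rec-1 sgRNA 2.

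ATM, the kinase at the head of the double-strand break response, was at 1.68 FPKM in the Jeko control, 1.91 and 1.83 in Jeko sgRNA 1 and 2, 1.74 in the library labelled Rec-1 control and 7.19 and 7.02 in Rec-1 sgRNA 1 and 2. The last pair stood apart from the other 4 libraries, which all lay between 1.68 and 1.91. Its difference between the sgRNA groups was 1.50 (SE 0.15, limma adjusted p = 0.00681), and 1.76 (adjusted p = 0.000733) once each library's trend with transcript length was removed. That removal was done among protein-coding genes only, where ATM without it had a limma adjusted p of 0.00165. Both Rec-1 values were above both Jeko values, with means of 7.10 ± 0.120 and 1.87 ± 0.0562 FPKM (SD, n = 2 each). Times its transcript length, the level corresponds to 21.6 to 24.7 fragments for each 1e6 mapped in the 4 low libraries and 92.8 and 90.7 in Rec-1 sgRNA 1 and 2, if the authors' gene model has a like length.

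ATR, the kinase of replication stress, ran the other way. It was at 3.49 FPKM in the Jeko control, 5.55 and 4.71 in Jeko sgRNA 1 and 2, 4.03 in the library labelled Rec-1 control and 2.11 and 2.56 in Rec-1 sgRNA 1 and 2. Rec-1 sgRNA was lowest and Jeko sgRNA highest, with the controls between them. The difference was −0.88 (SE 0.18, limma adjusted p = 0.0346), or −0.68 (adjusted p = 0.0374) with the length trend removed. The ATM to ATR ratio of FPKM was 0.344 to 0.480 in 4 libraries and 3.41 and 2.74 in Rec-1 sgRNA 1 and 2, so the order of the 2 kinases by level per length was inverted in the latter. CHEK1, the checkpoint kinase downstream of ATR, was at 23.8 FPKM in the control of Jeko, 19.4 and 14.9 with its guides, and 21.2, 15.2 and 23.4 in the Rec-1 libraries in the same order. Its sgRNA groups overlapped, with a difference of 0.14 (SE 0.29, limma adjusted p = 0.743). CHEK1 overlaps STT3A (an oligosaccharyltransferase subunit) on the same strand, and STT3A was at 17.3 to 21.2 FPKM in 3 libraries and 49.2 to 76.9 in Jeko sgRNA 2 and Rec-1 sgRNA 1 and 2. How reads shared by these loci were assigned is not given in the sources used here.

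Of the DNA-PK subunits, the catalytic subunit gene PRKDC was at 29.5 FPKM in the Jeko control, 34.3 and 24.7 in Jeko sgRNA 1 and 2, 28.3 in the library labelled Rec-1 control and 9.97 and 12.9 in Rec-1 sgRNA 1 and 2. Both Rec-1 sgRNA values were far below the other 4. The difference was −1.29 (SE 0.26, limma adjusted p = 0.035). XRCC5 followed the same order of groups, at 224, 253 and 171 FPKM in the Jeko control and sgRNA 1 and 2 and 187, 77.3 and 98.6 in the Rec-1 libraries, with a difference of −1.24 (SE 0.28, limma adjusted p = 0.0432). XRCC6 stood at 442, 405 and 354 FPKM in Jeko and 343, 179 and 256 for Rec-1. Its groups did not overlap, but its difference of −0.82 (SE 0.24, limma adjusted p = 0.0795) passed only among protein-coding genes alone and with the length trend removed (adjusted p = 0.0488). The products of XRCC5 and XRCC6 pair as equals in the Ku ring, and the ratio of their FPKM was 0.431 and 0.385 in Rec-1 sgRNA 1 and 2 against 0.483 to 0.626 in the other 4 libraries.

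LIG4, the end-joining ligase, was the other gene whose Rec-1 sgRNA values were all above those of Jeko sgRNA. It was at 3.85 FPKM in the Jeko control, 3.09 and 4.76 in Jeko sgRNA 1 and 2, 6.21 in the library labelled Rec-1 control and 7.37 and 8.04 in Rec-1 sgRNA 1 and 2. The library labelled Rec-1 control, which resembled Jeko across genes, was thus also above all 3 Jeko libraries. For XRCC6 and BRCA2 all 3 libraries labelled Rec-1 lay below all 3 Jeko libraries. The share of all tested genes separated in this way was not computed, so no result is read from it. The LIG4 difference between the sgRNA groups was 0.84 (SE 0.24, limma adjusted p = 0.0719), or 0.93 (adjusted p = 0.0245) with the length trend removed. Among protein-coding genes alone LIG4 passed without that removal (limma adjusted p = 0.0365). Its partner XRCC4 was higher in Rec-1 sgRNA by 0.86 (SE 0.17, limma adjusted p = 0.0348), from 11.3 and 12.2 FPKM in Jeko to 21.5 and 23.0.

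Genes of the choice between resection and protection were unequal. BRCA1 was at 27.8 FPKM in the Jeko control, 20.3 and 21.7 in Jeko sgRNA 1 and 2, 28.5 in the library labelled Rec-1 control and 7.63 and 10.9 in Rec-1 sgRNA 1 and 2. The controls were highest, Jeko sgRNA lower and Rec-1 sgRNA lowest, without overlap. The difference was −1.12 (SE 0.24, limma adjusted p = 0.0387). BARD1, whose product forms a ubiquitin ligase with BRCA1, was at 4.22 to 6.99 FPKM in all 6 libraries with a difference of −0.30 (SE 0.22, limma adjusted p = 0.348), and the BRCA1 to BARD1 ratio of FPKM was 1.81 and 1.95 in Rec-1 sgRNA 1 and 2 against 2.95 to 4.98 elsewhere. In the same order of libraries, BRCA2 was at 2.63, 3.22 and 2.91 FPKM in Jeko and 2.49, 2.03 and 2.43 for Rec-1, and TP53BP1 at 5.49, 8.97 and 9.36 in Jeko and 5.52, 7.64 and 8.21 for Rec-1. Their differences were −0.33 (SE 0.15, limma adjusted p = 0.182) and −0.19 (SE 0.17, limma adjusted p = 0.455). TP53BP1 shares its locus with TUBGCP4 on the opposite strand (4.34 to 10.6 FPKM), and BRCA1 overlaps NBR2 on the opposite strand (1.53 to 9.39 FPKM) and the pseudogene BRCA1P1. Whether counting used strand is not given in the sources used here.

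Counted without regard to size, 2 of the 10 genes had both Rec-1 sgRNA values above both Jeko sgRNA values, where 32.9% of all tested genes did, and 7 had both below, where 37.0% did. CHEK1 was the exception.

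**Figure D2:**
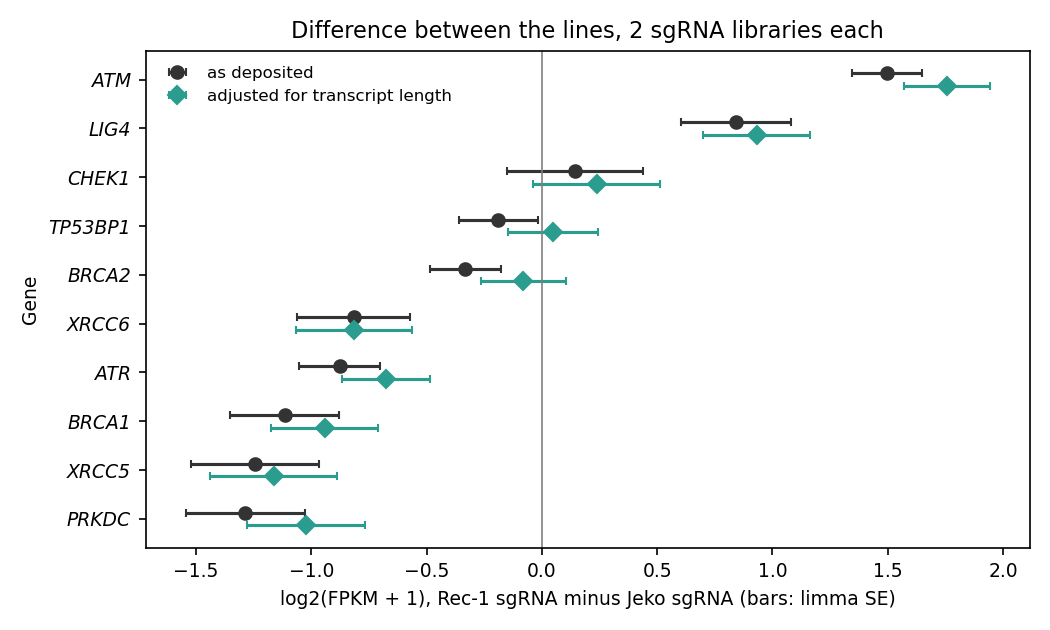
Difference in log2(FPKM + 1) of each gene, Rec-1 sgRNA minus Jeko sgRNA, with and without removal of the transcript-length trend. ATM lies at 1.50 before and 1.76 after the removal, while ATR, PRKDC, XRCC5 and BRCA1 stay between −1.29 and −0.68.

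Several of the genes share a bidirectional promoter region with a neighbour, which allows the neighbour to be read beside them. NPAT, a histone gene co-activator whose start lies 429 bases from that of ATM on the opposite strand, was at 2.18 FPKM in the Jeko control, 3.29 and 2.78 in Jeko sgRNA 1 and 2, 1.94 in the library labelled Rec-1 control and 3.40 and 3.46 in Rec-1 sgRNA 1 and 2. Unlike ATM it showed nearly the same level in all 4 sgRNA libraries, with a difference of 0.14 (SE 0.16, limma adjusted p = 0.547). The ATM to NPAT ratio of FPKM was 0.580 to 0.897 in 4 libraries and 2.11 and 2.03 in Rec-1 sgRNA 1 and 2. The difference between the genes' changes was not tested. MCM4, a subunit of the replicative helicase whose start lies 805 bases from that of PRKDC, was at 116 and 67.7 FPKM in Jeko sgRNA 1 and 2 and at 32.4 and 34.1 in Rec-1 sgRNA 1 and 2. It was called lower, with a difference of −1.39 (SE 0.31, limma adjusted p = 0.0439), next to −1.29 for PRKDC. The long non-coding RNA NBR2, 187 bases from BRCA1, ranged from 1.53 to 9.39 FPKM, with a difference of 1.18 (SE 0.53, limma adjusted p = 0.173). ZAR1L, 145 bases from BRCA2, was under 0.313 FPKM throughout and was not tested. DESI1, 252 bases from XRCC6, was at 18.2 and 25.2 FPKM in Jeko sgRNA 1 and 2 and at 19.7 and 31.7 in Rec-1 sgRNA 1 and 2, so its groups overlapped.

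The rest of the repair system, read from lists by step, was lower in Rec-1 sgRNA more often than higher. Of 93 tested genes outside the 10, 4 were called higher (4.30%, against 12.6% of all genes) and 17 lower (18.3%, against 13.1%). Of the 93 differences 75 were negative, with a median of −0.44 against −0.03 over all tested genes. The share of all tested genes with a negative difference was not computed. Among the Fanconi anaemia genes, which unhook crosslinks, all 10 differences were negative and 4 were called lower, including FANCI at −1.69 (limma adjusted p = 0.024) and FANCA at −1.43 (adjusted p = 0.019). FANCF was at −0.07, or at 0.005 with the length trend removed. Of 29 homologous recombination genes 1 was called higher and 6 lower. RMI2, part of the BLM dissolvasome, was higher by 0.88 (limma adjusted p = 0.0348), while the translocase gene RAD54B was lower at −2.38 (adjusted p = 0.0169) and the BRCA1-bound helicase gene BRIP1 at −1.68 (adjusted p = 0.0116). RAD54B was at 8.07 and 4.05 FPKM in Jeko sgRNA 1 and 2 and at 0.502 and 0.133 in Rec-1 sgRNA 1 and 2.

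In the steps nearest the 10 genes, end joining and end protection had calls in both directions. The median difference of each list below was negative, from −0.70 for the checkpoint genes to −0.12 for the sensors. Counts of calls stand beside 12.6% of all tested genes called higher and 13.1% called lower. The lists are short and none was tested against these shares, so the counts describe single genes only. Of 9 end-joining genes tested, XRCC4 was called higher and 2 were called lower, among them NHEJ1 (XLF, a ligation cofactor) at −0.92 (limma adjusted p = 0.0319). Of 14 sensor genes H2AFX, the histone variant that ATM phosphorylates, was the only one called, at 0.99 (limma adjusted p = 0.0277). Among 7 end-protection genes the shieldin gene C20orf196 (SHLD1) was called higher at 1.31 and PAXIP1 lower at −1.29, with limma adjusted p of 0.0415 and 0.0408. LIG3, 1 of 5 alternative end-joining genes, was lower at −1.64 (limma adjusted p = 0.0152). Of 11 checkpoint genes 3 were called lower, including TIMELESS, a fork protection gene, at −1.86 and PPM1D, the phosphatase that opposes ATM, at −1.44, with limma adjusted p of 0.0129 and 0.0236. None of 8 kinase relatives and their chaperones was called by limma, and 2 of the 8 had an unadjusted p under 0.05.

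Proliferation and p53 genes were read in the same libraries. Summed FPKM of 18 proliferation genes was 1611 to 2279 in the 3 Jeko libraries, 1501 in the library labelled Rec-1 control and 921 and 1056 in Rec-1 sgRNA 1 and 2. All 18 were at 1 FPKM or more in every library, and 6 of the 18 were called lower in Rec-1 sgRNA (13.1% of all genes were), with a median of −0.91. MKI67 was among them at −1.01 (limma adjusted p = 0.0363), while PCNA was at −1.03 (adjusted p = 0.156). Of 20 tested p53 target genes 2 were called higher and 3 lower, a share near the 25.7% of all genes, with CDKN1A at −1.77 (limma adjusted p = 0.0551) and MDM2 at −0.41 (adjusted p = 0.306). The part of proliferation in the lower repair genes was not tested.

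**Figure D3:**
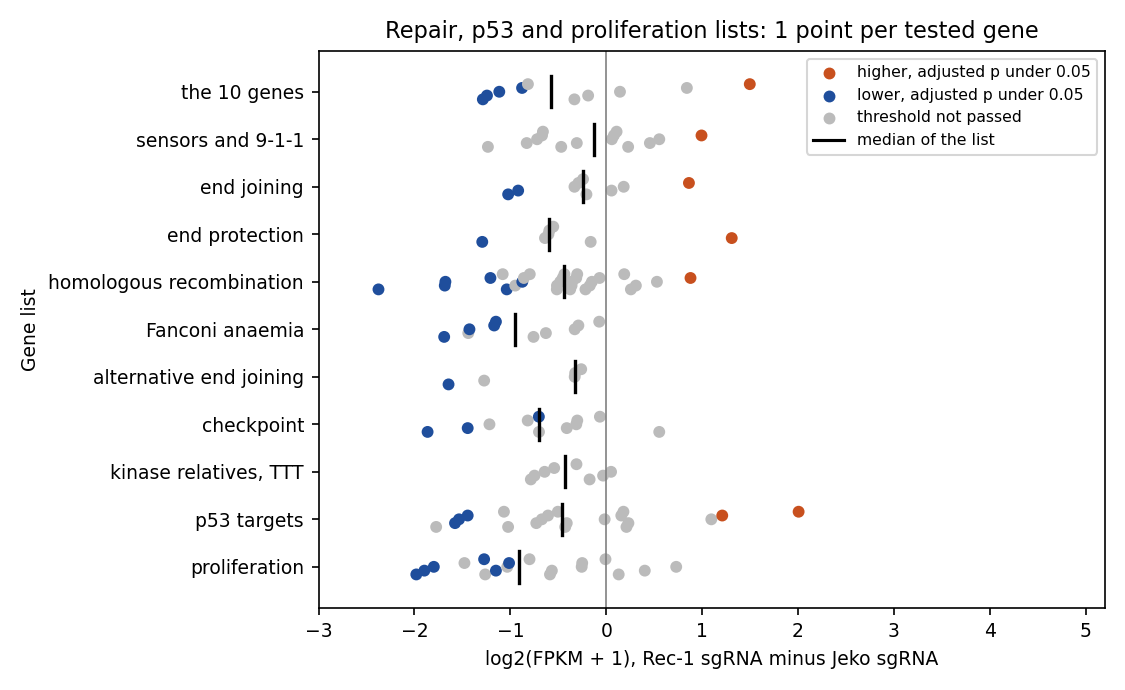
Difference in log2(FPKM + 1), Rec-1 sgRNA minus Jeko sgRNA, with 1 point per tested gene of each list, coloured by the limma call, and a bar at the list's median. The 10 genes (median −0.57) spread from −1.29 to 1.50, and the Fanconi anaemia and alternative end-joining lists lie wholly below 0.

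Within Jeko, the guides were set against the line's own control. None of the 10 genes was called. TP53BP1 was the farthest from its control, at 163% and 170% of it in Jeko sgRNA 1 and 2, and ATR was at 159% and 135%. BRCA1 was at 72.9% and 78.2% and CHEK1 at 81.7% and 62.5% of the control, and ATM at 114% and 109%.

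The count of 0 of 10 by limma stands beside 0.439% of all genes called (50 genes), and only TP53BP1 had an unadjusted p under 0.05. Its difference was 0.65 (SE 0.19, limma adjusted p = 0.397). Taken by side alone, 4 of the 10 genes were above the control in both guides and 3 below, against 36.9% and 36.4% of all genes.

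Transcript length bears on this contrast. In the Jeko sgRNA libraries long transcripts were generally higher relative to the control than short ones, and the fitted trend with length was 0.41 at the length of ATM, PRKDC, TP53BP1 and BRCA2, 0.39 at that of ATR and 0.36 at that of BRCA1. With the trend removed TP53BP1 went from 0.65 to 0.24 and ATR from 0.45 to 0.06. BRCA1 went from −0.39 to −0.75, and ATM (0.10 to −0.31) and BRCA2 (0.16 to −0.25) changed sign. No adjusted value passed the threshold. The direction of ATM and BRCA2 in Jeko thus depends on this adjustment.

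Within Rec-1 the guides were set against the library labelled control, which resembled Jeko as described above. ATM was at 414% and 404% of that library and rose by the test. BRCA1 was at 26.8% and 38.4% and fell. PRKDC (35.2% and 45.5%), XRCC5 (41.3% and 52.6%), XRCC6 (52.4% and 74.8%) and ATR (52.4% and 63.5%) were below it in both guides without passing the threshold. TP53BP1 was at 138% and 149% and LIG4 at 119% and 129%.

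The test called 2 of 10, where 19.2% of all genes were called. ATM differed by 1.57 (SE 0.17, limma adjusted p = 0.0113) and BRCA1 by −1.54 (SE 0.28, limma adjusted p = 0.0354), and PRKDC by −1.25 (limma adjusted p = 0.0659). By side alone 3 of the 10 were above the control in both guides and 6 below, against 41.8% and 43.1% of all genes. The fitted trend with length was 0.0857 and 0.130 for sgRNA 1 and 2 at the length of ATM and −0.16 and −0.17 at that of XRCC6. With it removed, in a fit of protein-coding genes only, PRKDC was called too (−1.35, limma adjusted p = 0.0238), which made 3 of 10. Protein-coding genes alone, without that removal, also gave 3 of 10, with PRKDC at −1.25 (limma adjusted p = 0.0334). Without Rec-1 sgRNA 1 or without Rec-1 sgRNA 2 none of the 10 was called, and 1 was called without either Jeko sgRNA library, which lend only their spread. In the library labelled Rec-1 control itself, the 10 genes stood between 77.6% (XRCC6) and 161% (LIG4) of the Jeko control.

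Of the 93 other repair genes in this contrast 10 were called lower (10.8%), near the 9.11% of all genes called lower. Of the same genes 0 were called higher, where 1145 of all 11400 tested genes were. With the length trend removed, among protein-coding genes only, 21 of 92 were called lower and 1 higher, where 1265 and 1372 of 10294 genes were. Of the 10 called without that removal, end joining had 3. Among them were the Ku-binding factor gene C9orf142 (PAXX) at −1.18 and NHEJ1 at −0.94, with limma adjusted p of 0.0413 and 0.0471. Homologous recombination had 4, led by RAD54B at −2.37 and the nuclease subunit gene EME1 at −1.62 (limma adjusted p = 0.0355 and 0.0125). FANCA at −1.72, the CDK1-inhibiting kinase gene PKMYT1 at −1.57 and TIMELESS at −1.49 followed, with limma adjusted p of 0.0231, 0.0165 and 0.0421. In Jeko limma called none of the 93, and 6 had an unadjusted p under 0.05.

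**Figure D4:**
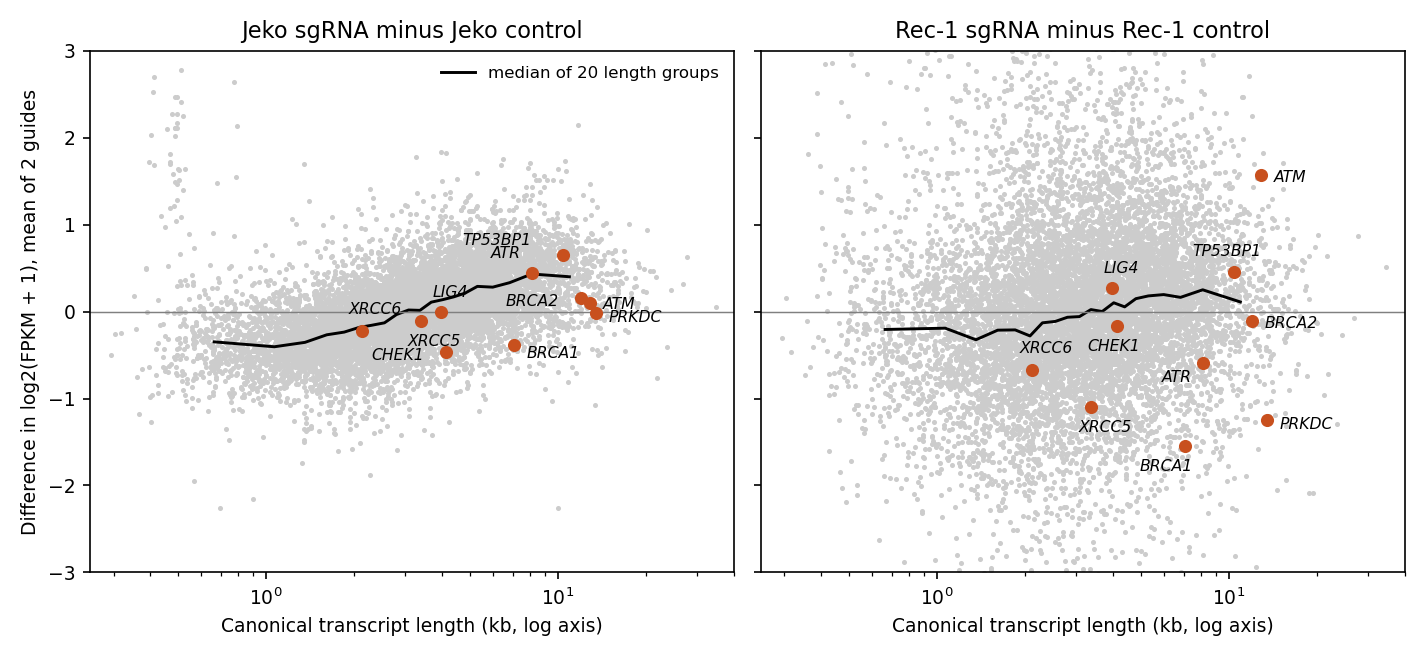
Difference in log2(FPKM + 1) from the own-line control (mean of the 2 guides) against canonical transcript length in kb on a log axis, for tested protein-coding genes (grey), the 10 genes (orange) and the median of 20 length groups (line); genes beyond 3 in either direction are outside the frame. In Jeko TP53BP1 (0.65) lies above the rising line, ATR (0.45) close to it and the other long members below it, and in Rec-1 ATM lies far above it at 1.57.

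Whether the guides went with different changes in the lines was tested with the library labelled Rec-1 control, which resembled Jeko, as the Rec-1 reference. ATM was at 1.74 FPKM in that library and at 1.68 in the Jeko control. Its result here therefore rests on the same Rec-1 sgRNA libraries as its calls above. This contrast cannot tell apart a response to the guides from other differences of those libraries. ATM was the only one of the 10 called, with a Rec-1 difference larger than the Jeko difference by 1.46 (SE 0.24, limma adjusted p = 0.0475), where 6.94% of all genes were called. This call was lost in 8 of 11 alternatives, with adjusted p from 0.0528 to 0.134 where ATM was tested. All 4 omissions of 1 sgRNA library were among them. ATR was above the control in both Jeko guides and below it in both Rec-1 guides, with a difference between lines of −1.04 (limma adjusted p = 0.15).

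Over both lines together, 4 sgRNA against 2 control libraries with the line as covariate, none of the 10 was called, where 0.246% of all genes (28) were. TP53BP1 at 0.55 (SE 0.17, limma adjusted p = 0.198) and BRCA1 at −0.96 (limma adjusted p = 0.204) had unadjusted p of 0.0186 and 0.0255, and no other of the 10 was under 0.05. TP53BP1 and ATM were above the own-line control in all 4 sgRNA libraries, as were 21.0% of all genes, and XRCC6 and BRCA1 were below it in all 4, as were 21.1%. With the length trend removed the TP53BP1 difference was 0.27. Limma called none of the 93 other repair genes, and 18 had an unadjusted p under 0.05. Without the Jeko control, when the contrast rests on Rec-1 alone, 2 of 10 were called.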

How the data were processed

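RNA of 6 libraries was prepared with an Illumina TruSeq kit, per the labels' protocols. The authors deposited 1 table of FPKM values with a column per library, per the file headers. TopHat and the build hg19 are listed in the submitters' processing notes. The program that computed FPKM, its annotation and its use of strand are not given in the sources used here, and neither are fragment totals, so depth is unknown and no counting interval is given.

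Values were analysed as log2(FPKM + 1), a scale that understates changes of low genes. The 11400 genes whose mean reached 1 FPKM were fitted with limma 3.58.1 in R 4.3.3 (trend in eBayes), and p-values were adjusted over all of them. The Rec-1 against Jeko comparison used the 4 sgRNA libraries only, and contrasts with controls used all 6. Each unreplicated control was assumed to vary like the other groups. The fits were run on simulated data with the same spread for every gene and large known changes. This checked the size and sign of the estimates only, and no rate of false calls is given for the real data. Alternatives were a pseudocount of 0.1, a minimum of 5 FPKM, no filter, protein-coding genes only, equal protein-coding sums, quantile normalization, removal of a lowess trend with transcript length, the guide number as block, and leaving out each library. The length trend was fitted and removed among protein-coding genes only, so its p-values also reflect that smaller set of genes.

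Gene positions and transcript lengths came from GENCODE on GRCh37 (the same assembly as hg19), to which 22942 of 25277 rows matched by symbol or RefSeq synonym. Upstream sequence was read from the same genome. Other steps used matplotlib 3.10.9, numpy 2.4.6 and pandas 2.3.3 in Python 3.11.15. The 10 genes and all lists were chosen with earlier results of these data known. Always named are the 10 genes, NR4A1, CCND1, head-to-head partners, CDKN1A, MDM2, MKI67 and PCNA. To these were added, from each repair list and comparison, up to 2 higher and 2 lower called genes with the largest differences. BARD1, NHEJ1 in the Rec-1 contrast with its control, STT3A, TUBGCP4, DESI1, GADD45A, CCNG1 and the neighbours in the closing section were chosen after their values were seen. Some list genes are counted but not reported here one by one.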

Additional observations from a re-analysis of the deposited data

Results flagged for a closer look

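Of the 10 genes, ATM passed the test of a difference between the lines in their change from the own-line control, and ATR and BRCA2 lay on opposite sides of the control in the lines without passing it. For ATM the Rec-1 difference exceeded the Jeko difference by 1.46 on the log2(FPKM + 1) scale (limma adjusted p = 0.0475). ATR was above the control in both Jeko guides and below it in both Rec-1 guides, a difference between lines of −1.04 that did not pass the test (limma adjusted p = 0.15). For BRCA2 the difference between lines was −0.27 (limma adjusted p = 0.604). With the transcript-length trend removed BRCA2 was below the control in both lines, at −0.25 in Jeko and −0.23 in Rec-1. The control of Rec-1 in these values is the library that resembled Jeko.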

How the results depend on the processing

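Of the 10 genes, the number called in Rec-1 sgRNA against Jeko sgRNA (5) was 2 of the 7 tested with a minimum of 5 FPKM, 1 without a filter, 7 with protein-coding genes only, 7 with the length trend removed, 3 with equal protein-coding sums, 2 with the guide number as replicate block and 0 to 1 when 1 library was left out. Against the Rec-1 control (2) it was 3 with protein-coding genes only and with the length trend removed, 1 with a minimum of 5 FPKM, 1 without a filter and 0 to 2 when 1 library was left out, and over both lines (0) it was 2 without the Jeko control. The ATM call for the difference between lines (1) was 0 with a pseudocount of 0.1, with a minimum of 5 FPKM (ATM not tested), without a filter, with quantile normalization, with the replicate block and when any 1 sgRNA library was left out. Same-numbered guides of the lines deviated with r = 0.0998 across 11400 genes, so the block rests on a number alone. Among all genes, calls ranged over the alternatives from 847 to 3414 (2933 as reported), 0 to 2180 (28), 3 to 65 (50), 657 to 2712 (2184) and 75 to 1016 (791), in the order line comparison, both lines, Jeko, Rec-1 and difference between lines.

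Of the single-gene values 552 kept direction and side of the threshold, 44 lost a call, 8 gained one and 21 changed sign. The 552 include values never called, whereas the 44 come only from genes called as reported. Between the sgRNA groups ATM kept its call in 8 of 11 alternatives, ATR in 5 of 11, BRCA1 and PRKDC in 6 of 12 each and XRCC5 in 4 of 12. Against the Rec-1 control ATM kept it in 10 of 12 and BRCA1 in 8 of 13. With the length trend removed, TP53BP1 was 0.047 between lines and 0.071 in the difference between lines, BRCA2 was −0.24 over both lines, −0.25 in Jeko and 0.015 in the difference between lines, and ATM was −0.31 in Jeko. Quantile normalization gave −0.075 for BRCA2 over both lines and 0.036 for XRCC5 in Jeko, and equal sums gave 0.051 for PRKDC and 0.057 for LIG4 in Jeko. Leaving out 1 library at a time gave CHEK1 from −0.15 (without Rec-1 sgRNA 2; −0.04 without Jeko sgRNA 2) to 0.44 between lines and from −0.46 to 0.14 (without Rec-1 sgRNA 1) against the Rec-1 control. In Jeko, LIG4 ranged from −0.25 to 0.25 (without Jeko sgRNA 1), PRKDC from −0.25 to 0.21 and XRCC5 from −0.39 to 0.18 (both without Jeko sgRNA 2). Over both lines, BRCA2 ranged from −0.11 (without the Jeko control; −0.02 without Jeko sgRNA 1) to 0.16, ATR from −0.60 to 0.45 (without the Rec-1 control; 0.04 without Rec-1 sgRNA 1), and LIG4 from −0.0001 (without the Rec-1 control) to 0.27. The cause of these changes was not tested, except that leaving out a control leaves 1 line in the contrast.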

Other observations

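Tested genes within 1 Mb of each of the 10 were read after the values of the 10 were known. Around ATM 6 of 7 neighbours were higher in Rec-1 sgRNA than in Jeko sgRNA, with a median of 0.31 on the log2(FPKM + 1) scale. The largest difference was 0.82 for ACAT1, a mitochondrial thiolase gene, against 1.50 for ATM. CUL5, a cullin gene, was at 3.12 and 2.56 FPKM in Jeko sgRNA 1 and 2 and at 5.93 and 4.03 in Rec-1 sgRNA 1 and 2. Around CHEK1, on the same chromosome arm, 17 of 19 neighbours were higher, with a median of 0.66 against 0.14 for CHEK1 itself. Around XRCC5 all 6 neighbours were lower, with a median of −0.75 against −1.24 for XRCC5. Around BRCA1 27 of 41 were lower, with a median of −0.27. Neighbours were split around XRCC6 (15 higher and 16 lower), TP53BP1 (14 and 12) and ATR (4 and 5). PRKDC had 3 tested neighbours, 1 higher and 2 lower. BRCA2 had 3, all lower, with a median of −0.28 against −0.33 for BRCA2. LIG4 had 1, ABHD13, which was lower at −0.52 against 0.84 for LIG4. The median over all tested genes was −0.03, and the share of them higher or lower was not computed. These are descriptions of the same 4 libraries with no test.

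Among p53 target genes, GADD45A and CCNG1 stood opposite to most of the list. GADD45A, a stress-response gene, was at 1.66, 2.72 and 4.74 FPKM in the Jeko control and sgRNA 1 and 2, at 3.43 in the library labelled Rec-1 control and at 19.3 and 16.0 in Rec-1 sgRNA 1 and 2, a difference between the sgRNA groups of 2.01 (limma adjusted p = 0.0164). CCNG1, the cyclin G1 gene, differed by 1.21 (limma adjusted p = 0.0294). The median of the 20 tested targets was −0.47, and CDKN1A was at 186 and 202 FPKM in Jeko sgRNA 1 and 2 and at 36.7 and 85.2 in Rec-1 sgRNA 1 and 2.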
